A study of Mus musculus with 6 samples.

Results

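The genes described here are 10 components of the route by which cytokines of the interleukin-6 family signal through gp130 to STAT3: the receptor genes Il6st (which codes for gp130), Lifr, Cntfr, Osmr and Il6ra, the kinase genes Jak1, Jak2 and Tyk2, the transcription factor gene Stat3 and its feedback inhibitor Socs3. They were chosen by name, each gene being the sum of its transcripts in the deposited table, and all 10 were found among 54242 gene symbols. RNA had been measured in dorsal root ganglia, which hold the cell bodies of sensory neurons, dissected at the L4-6 levels of male C57bl/6 mice aged 8-10 weeks. The fasted group had followed 10 days of intermittent fasting and the fed group had eaten ad libitum, with 3 libraries in each. In both groups the animals were killed after 24 hours (the labels do not say after what), and the ganglia were broken up with enzymes and enriched for neurons on a gradient before RNA was taken. The labels name no genotype or drug, and they do not say whether a library is 1 animal or a pool, so that any p-value here reflects the variation among 6 libraries, a part of which may be technical. Values are TPM, each transcript's share of the library's transcripts scaled to a fixed total. They are corrected for transcript length, so that levels of different genes can be compared, but they no longer hold read counts, and the depth of each library is unknown.

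gp130 is the shared signalling chain of the family. LIF, CNTF and oncostatin M bring it together with LIFR or OSMR, and CNTF and interleukin-6 first bind CNTFR or IL6RA, which have no kinase partner of their own. The Janus kinases bound to the receptor tails phosphorylate the tails and then STAT3, which enters the nucleus and switches on, among others, Socs3, whose product blocks the same receptors. In sensory neurons this route is known for the response to axon injury, during which STAT3 is activated and carried back along the axon. RNA levels do not measure that phosphorylation.

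Among the 67 annotated transcripts of the 10 genes, many differ in their coding sequence. The sequences that separate the forms of STAT3 and LIFR are shown because isoform results below turn on them. STAT3 exists as an alpha form and as a beta form that lacks the transactivation domain at the end of the protein. The coding sequence of alpha has 770 codons (Stat3-203) and that of beta 722 (Stat3-202). The difference is an acceptor site within exon 23, which spans chr11:100889478-100889590 in Stat3-203 and chr11:100889478-100889540 in Stat3-202. The stretch chr11:100889516-100889928, GRCm38, minus strand, is given 5′ to 3′ as spliced. Capitals in alpha mark the 50 bases that beta skips, and capitals in beta mark the stop codon that the shifted frame reaches:
Stat3 alpha: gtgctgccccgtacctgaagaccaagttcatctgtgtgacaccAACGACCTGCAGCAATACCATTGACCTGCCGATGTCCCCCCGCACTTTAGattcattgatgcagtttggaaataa
Stat3 beta: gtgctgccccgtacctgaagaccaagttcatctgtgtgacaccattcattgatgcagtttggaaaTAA
A further alpha transcript, Stat3-201, ends exon 21 a codon earlier and has 769 codons. The junction of exons 21 and 22 (chr11:100889905-100893100, minus strand) reads as follows, with the extra bases of Stat3-203 in capitals:
Stat3-203: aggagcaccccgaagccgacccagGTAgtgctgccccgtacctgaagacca
Stat3-201: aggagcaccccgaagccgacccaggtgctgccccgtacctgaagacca
LIFR exists as a membrane receptor of 1092 codons and, in the mouse, also as a secreted form of 719 codons, known as a soluble protein that binds LIF. After a shared exon (chr15:7184717-7184818, plus strand) the membrane transcripts go on to chr15:7185566-7185733, whereas the soluble ones use chr15:7185067-7185343 and stop within it. The spliced sequence is shown from the last 45 bases of the shared exon. Capitals mark the first 45 bases of the next exon in the membrane form (chr15:7184774-7185610), and the last coding bases with the stop codon in the soluble form (chr15:7184774-7185074):
Lifr membrane: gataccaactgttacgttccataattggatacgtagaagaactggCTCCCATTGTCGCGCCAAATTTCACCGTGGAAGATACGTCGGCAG
Lifr soluble: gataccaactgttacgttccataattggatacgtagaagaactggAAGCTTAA

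The libraries carried the marks of dorsal root ganglia: all 8 neuronal markers on the list (Tubb3, Rbfox3, Snap25, Uchl1, Prph, Nefh, Avil and Scn9a) were detected, summing to 13260 to 13755 TPM in fasted and 12151 to 13432 TPM in fed libraries. Other cells were present too, with Schwann cell markers at 5314 to 5916 TPM in fasted and 5064 to 5807 TPM in fed libraries. Myeloid markers summed to 80.3 to 93.3 TPM in fasted and 114 to 132 TPM in fed libraries, without overlap, and 6 of the 7 markers were lower without overlap, against 5.07% of all tested genes. Erythrocyte markers summed to 1603 to 3045 TPM in fasted and 1197 to 1469 TPM in fed libraries, without overlap. All 4 were higher in fasted libraries without overlap, where 17.8% of all tested genes did not overlap in either direction. Fed replicate 2 stood apart by skeletal muscle RNA (2433 TPM over 5 markers, against 46.4 to 244 TPM in the other 5 libraries) and by mitochondrially encoded protein genes (8.86% of TPM, against 4.74% to 5.15% in fasted and 5.62% and 6.79% in the other fed libraries). None of these markers was at 0 in all libraries, their part in the results below was not tested, and in ganglion RNA fewer cells of a type and less RNA per cell cannot be told apart. Of the 15097 genes that averaged 1 TPM or more, 1 passed an adjusted p of 0.05 (limma with Benjamini-Hochberg adjustment).

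None of the 10 genes passed in the comparison of fasted with fed ganglia, where 0.00662% of all tested genes were called. Their fasted and fed values overlapped in every case, 10 of 10, while 17.8% of all tested genes did not overlap. All 10 passed the 1 TPM filter. Without adjustment 0 of the 10 had p under 0.05, against 9.94% of all genes, the smallest being 0.058 for Jak1. Of the 10 log2 fold changes of TPM + 1, fasted over fed, 8 were above 0, as were those of 62.5% of the tested genes, and their median was 0.06, where the median of all tested genes was 0.03. These shares depended on the scaling: after rescaling without mitochondrially encoded genes, 70% of the members and 50.3% of all tested genes were above 0. The limits of the data are given by the 95% intervals: as fold changes of TPM + 1, which understate those of low genes, they reached from 0.826 at the lowest bound (Socs3) to 1.32 at the highest (Il6ra). For 8 genes the interval lay within 1.25-fold in either direction, Socs3 and Il6ra being the exceptions. A p that misses the threshold does not show that the levels were equal.

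**Figure D1:**
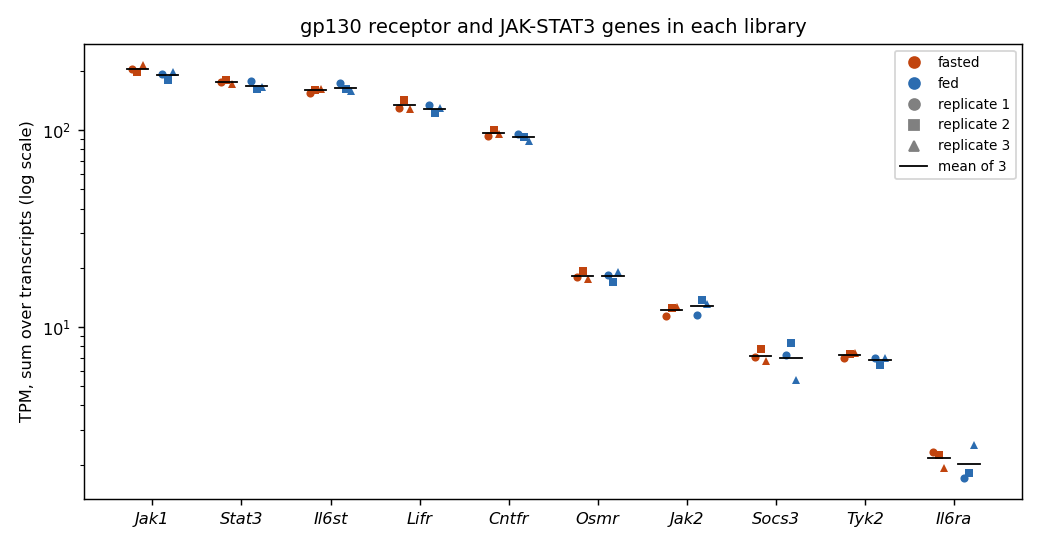
TPM of each gene, summed over its transcripts, on a log axis. Each point is a library (3 fasted, left, and 3 fed, right, for each gene) and the line is the mean of 3. Fasted and fed points overlap for all 10 genes, which run from about 2 TPM (Il6ra) to about 200 TPM (Jak1).

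In the order of RNA levels, the messages for JAK1, STAT3, gp130, LIFR and CNTFR lay far above those of the chains for oncostatin M and interleukin-6. Averaged over the 6 libraries, Jak1 (197.9 TPM), Stat3 (172.1 TPM), Il6st (162.0 TPM), Lifr (131.1 TPM) and Cntfr (94.4 TPM) were followed by Osmr (18.2 TPM), Jak2 (12.5 TPM), Socs3 (7.07 TPM), Tyk2 (6.99 TPM) and Il6ra (2.09 TPM). Counting coding transcripts alone, Lifr averaged 98.3 TPM and Cntfr 70.0 TPM. These are levels of the whole preparation, not of single cell types. Jak1 was more abundant than 93.8% of all tested genes and Il6ra than 10.3%. Neighbours in this order whose ranges overlapped were Jak1 with Stat3, Stat3 with Il6st, and Socs3 with Tyk2. The other neighbours did not overlap in any pair of libraries. The spread over all 6 libraries was small for most: the coefficient of variation (SD over mean) ran from 3.88% for Il6st to 15.4% for Il6ra, and 7 of the 10 lay below the median of all tested genes, 7.13%. Jak2 (7.26%), Socs3 (14.2%) and Il6ra lay above it.

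Among the receptors, Il6st (chr13:112464070-112510086, plus strand) was at 155.0, 160.6 and 162.8 TPM in fasted replicates 1 to 3, against 173.5, 161.3 and 158.6 TPM in fed ones. The fasted values lay inside or just below the range of the fed ones, and the log2 fold change was -0.04 (standard error 0.04, 95% interval -0.15 to 0.06; limma, adjusted p = 0.72). Lifr (chr15:7090614-7197489, plus strand), the signalling partner of gp130 for LIF and CNTF, was at 129.8, 143.2 and 127.8 TPM in fasted and 133.8, 122.9 and 129.0 TPM in fed libraries. Fasted replicate 2 was the highest library and fed replicate 2 the lowest, with the other 4 close together. Cntfr (chr4:41657498-41697089, minus strand), which codes for the CNTF-binding chain that is anchored to the membrane by a lipid, was at 93.7, 100.8 and 95.9 TPM in fasted and 95.3, 92.9 and 87.9 TPM in fed libraries. Its fasted values were higher on average by 0.07 on the log2 scale (95% interval -0.04 to 0.18; limma, adjusted p = 0.57), and 1 fed library lay among them.

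Osmr (chr15:6813577-6874969, minus strand), the oncostatin M chain, which also pairs with IL31RA in itch-sensing neurons, was at 17.9, 19.2 and 17.6 TPM in fasted and 18.4, 16.9 and 19.1 TPM in fed libraries. The groups interleaved fully, and the log2 fold change of 0.01 turned to between -0.02 and -0.01 under each scaling of these sums and with array weights. Il6ra (chr3:89864059-89913196, minus strand), the interleukin-6-binding chain, was the lowest of the 10 at 2.33, 2.25 and 1.92 TPM in fasted and 1.71, 1.82 and 2.53 TPM in fed libraries. Fed replicate 3 was the highest library and the other 2 fed ones the lowest, so the interval of its log2 fold change was wide, from -0.25 to 0.40. Together these values set the message of the shared chain gp130 above the LIFR, CNTFR, OSMR or IL6RA messages in each library.

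Among the kinases, Jak1 (chr4:101152367-101265282, minus strand), which is known to be needed for signalling through gp130, had the smallest p of the 10 genes. It was at 203.9, 197.7 and 215.2 TPM in fasted and 192.6, 180.2 and 198.1 TPM in fed libraries, so that 1 fed library lay just above the lowest fasted one. The log2 fold change was 0.11 (standard error 0.05, 95% interval -0.01 to 0.23; limma, adjusted p = 0.51). Jak2 (chr19:29251828-29313080, plus strand), which also serves the leptin receptor, was at 11.4, 12.5 and 12.7 TPM in fasted and 11.5, 13.7 and 13.1 TPM in fed libraries, and Tyk2 (chr9:21104068-21131243, minus strand) was at 6.95, 7.26 and 7.37 TPM in fasted and 7.01, 6.42 and 6.95 TPM in fed libraries. Both overlapped between the groups, with log2 fold changes of -0.06 for Jak2 (95% interval -0.25 to 0.13) and 0.07 for Tyk2 (95% interval -0.09 to 0.24). Jak1 thus stood more than 10 times above either in each library.

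Stat3 (chr11:100885098-100939540, minus strand) was at 174.8, 180.7 and 171.6 TPM in fasted and 177.9, 161.2 and 166.3 TPM in fed libraries. Fed replicate 1 lay among the fasted libraries, and the log2 fold change was 0.06 (standard error 0.05, 95% interval -0.05 to 0.17; limma, adjusted p = 0.63). Socs3 (chr11:117966079-117970047, minus strand), which STAT3 is known to induce, was at 7.03, 7.72 and 6.75 TPM in fasted and 7.23, 8.32 and 5.36 TPM in fed libraries. The fed libraries enclosed the fasted ones, holding both the highest and the lowest value. The log2 fold change was 0.05 (standard error 0.14, 95% interval -0.28 to 0.38; limma, adjusted p = 0.90), and without fed replicate 3 it was -0.10 (adjusted p = 0.66). The genes whose values over the 6 libraries lay closest to those of Socs3, by the mean absolute difference of centred log2(TPM + 1), were Il1r1 (0.045), Dclre1b (0.048) and Zfp566 (0.053), the interleukin-1 receptor, a DNA repair nuclease and a zinc finger gene. No background was computed for this measure, and a link of these genes to Socs3 was not tested.

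**Figure D2:**
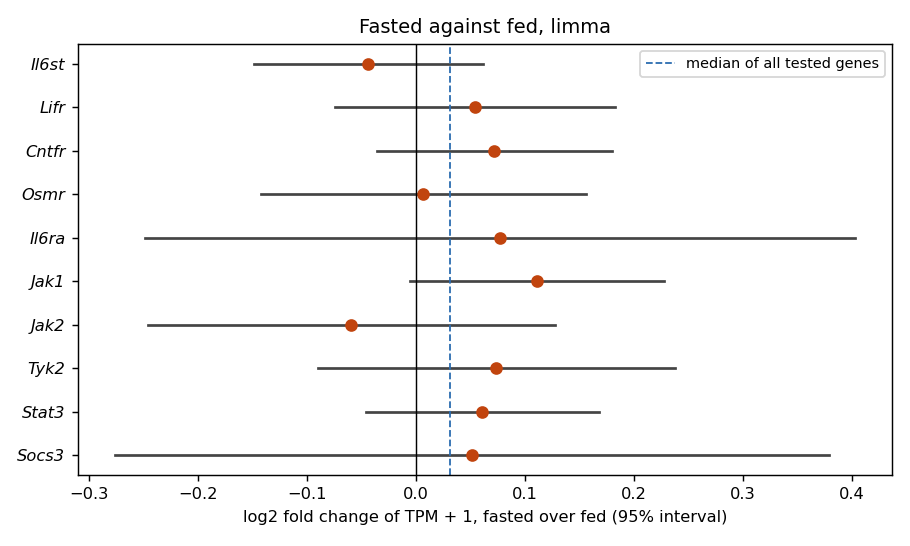
Log2 fold change of TPM + 1, fasted over fed, for each of the 10 genes (points) with its 95% interval from limma (bars). The solid line is 0 and the dashed line the median of all 15097 tested genes, 0.03. Every interval includes 0, and those of Il6ra and Socs3 are the widest.

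Transcript by transcript, 21 of the 67 annotated forms reached a mean of 1 TPM and 14 were at 0 in every library. Of the 21, 0 passed in fasted against fed libraries, where 0.0271% of the 33197 tested transcripts were called (limma, smallest adjusted p among the 21 = 0.67). Their groups overlapped in 18 of 21 cases, close to the rest of the table, where 14.4% of tested transcripts did not overlap. A change in the balance of transcripts within a gene was tested for the 6 genes with at least 2 tested transcripts, and 0 passed, against 0.749% of all 8014 genes so tested (limma diffSplice). Cntfr had the smallest p of the 6 (unadjusted 0.042, adjusted 0.48). On simulated data this test made many false calls; with mean-variance weights, an alternative chosen after seeing the data, 0 of the 6 passed too, where 0.0873% of all genes did. All transcript values rest on the division of shared reads by the authors' quantification, which is least certain between forms that differ by a few bases.

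**Figure D3:**
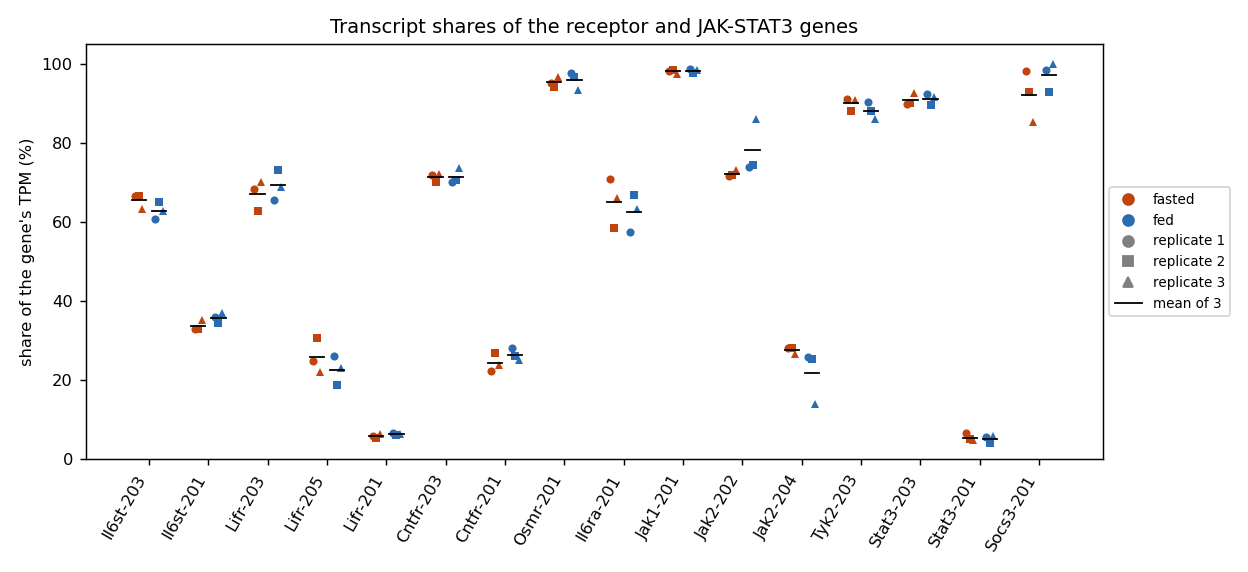
Share of each gene's TPM in the transcripts with a mean of at least 1 TPM and at least 5% of the gene (percent). Points are libraries, fasted left and fed right for each transcript, and lines are means of 3. Only the Jak2 pair is without overlap between the groups, with fed replicate 3 apart.

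In each gene a coding transcript held the largest share. For gp130, Il6st-203 and Il6st-201 have the same coding sequence of 917 codons and differ outside it, with lengths of 8678 and 5207 bases. Il6st-203 held 66.5%, 66.7% and 63.3% of the gene in fasted and 60.8%, 65.1% and 62.8% in fed libraries, and Il6st-201 held most of the rest, at 33.0%, 33.0% and 35.3% in fasted and 35.9%, 34.4% and 36.9% in fed libraries. The groups overlapped by 1 library in each. Osmr-201 (93.4% to 97.7%), Jak1-201 (97.5% to 98.7%), Tyk2-203 (86.1% to 91.1%) and Socs3-201 (85.2% to 100%) left little to other forms in any of the 6 libraries. Il6ra-201 held 57.6% to 71.0%, the rest being Il6ra-202, which is longer at 8639 bases, has a codon less and stayed below the 1 TPM filter.

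Jak2 was split between Jak2-202 and Jak2-204, which have the same coding sequence of 1132 codons. Jak2-204 held 28.2%, 28.2% and 26.8% of the gene in fasted and 26.0%, 25.5% and 13.9% in fed libraries. The groups did not overlap, but 2 fed libraries lay close to the fasted ones and fed replicate 3 set the size of the gap. The exact two-sided permutation p was 0.1, the smallest that 3 against 3 libraries can give, and the test of transcript balance did not pass (limma diffSplice, adjusted p = 0.69).

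In Lifr and Cntfr a short transcript without a coding sequence took a large part of the gene's TPM, and it moved the sums. Lifr-205, of 299 bases, was at 32.2, 44.0 and 28.3 TPM in fasted and 34.9, 23.2 and 29.9 TPM in fed libraries. The highest and the lowest Lifr sums, in fasted replicate 2 and fed replicate 2, were the libraries with the highest and the lowest Lifr-205. Lifr-205 is not typed as protein-coding, nor is Lifr-206, which is annotated as a target of nonsense-mediated decay. Without these, coding Lifr lay at 96.6, 98.4 and 99.0 TPM in fasted and 98.2, 98.8 and 98.4 TPM in fed libraries. Its coefficient of variation was 0.873%. Cntfr-201, of 699 bases and also non-coding, was at 20.9, 27.2 and 22.8 TPM in fasted and 26.8, 24.3 and 22.03 TPM in fed libraries.

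Coding Cntfr did separate the groups on the TPM scale. It was at 72.4, 73.1 and 72.8 TPM in fasted libraries and at 68.1, 68.0 and 65.8 TPM in fed ones. The fasted libraries lay within 1 TPM of each other and all above the fed ones. Summed over coding transcripts, 14.4% of the 13235 genes so tested lay higher in the fasted group without overlap. In a fit of all genes on these sums, added after seeing the data, that of Cntfr was 0.11 on the log2 scale (standard error 0.04, 95% interval 0.03 to 0.19) and it did not pass (limma, unadjusted p = 0.015, adjusted p = 0.40). The same fit put Lifr at -0.01 (95% interval -0.08 to 0.07), called 0 genes in all, and had 1029 genes higher and 458 lower at an unadjusted p under 0.05. That split turned round with the scaling: 548 genes were higher and 738 lower when median-of-ratios factors were applied to the same coding sums, where Cntfr was at 0.07 (95% interval -0.01 to 0.16; limma, adjusted p = 0.55). On sums over all transcripts it was 1015 higher and 486 lower in TPM as deposited, against 567 and 733 with median-of-ratios scaling, 581 and 721 with TMM-type scaling, 663 and 661 after quantile normalisation and 557 and 756 after rescaling without mitochondrially encoded genes. In TPM as deposited, the neuronal markers moved the same way as coding Cntfr: all 8 had log2 fold changes above 0 (0.04 to 0.14). Of all tested genes 62.5% were above 0 too, and the median of all tested genes was 0.03. Uchl1 was higher without overlap, where 17.8% of all tested genes did not overlap in either direction. The part of the neuronal markers in the Cntfr values was not tested. Most of coding Cntfr was Cntfr-203, with the full coding sequence of 372 codons, at 67.4, 70.7 and 69.2 TPM in fasted and 66.9, 65.6 and 64.7 TPM in fed libraries. The groups of this transcript were separated by less than 1 TPM. Cntfr-205, a fragment of 60 codons, was at 4.98, 2.12 and 2.54 TPM in fasted and 1.15, 2.20 and 1.07 TPM in fed libraries, so that it added to the gap mainly in fasted replicate 1.

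The forms of STAT3 kept nearly constant proportions. Of the coding transcripts, alpha of 770 codons made up 92.0%, 93.4% and 93.7% in fasted and 93.1%, 94.4% and 92.7% in fed libraries. The alpha form a codon shorter made up 6.73%, 5.27% and 5.02% in fasted and 5.72%, 4.34% and 6.05% in fed libraries. Beta made up 1.29%, 1.29% and 1.30% in fasted and 1.20%, 1.30% and 1.29% in fed libraries. All of these shares overlapped between the groups. In TPM, beta was at 2.21, 2.25 and 2.21 in fasted and 2.11, 1.99 and 2.12 in fed libraries, without overlap by a narrow gap (limma, log2 fold change 0.07, adjusted p = 0.91). Coding STAT3 message in these ganglia was thus above 98% alpha in each library, a share that leaves out the non-coding transcripts of the gene.

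The soluble form of LIFR showed a gap between the groups at a very low level; it was picked out with its values in view. Its transcripts Lifr-202 and Lifr-207 summed to 0.148, 0.661 and 0.973 TPM in fasted and 1.18, 1.19 and 1.08 TPM in fed libraries, while the membrane form was at 96.2, 97.7 and 97.9 TPM in fasted and 96.7, 97.6 and 97.4 TPM in fed libraries. The soluble share of both forms was 0.153%, 0.672% and 0.984% in fasted and 1.21%, 1.20% and 1.10% in fed libraries. Every fasted library lay below every fed one, fasted replicate 3 being near the fed values and fasted replicate 1 far below. The exact two-sided permutation p was 0.1, the smallest possible with 3 against 3 libraries. Most of the gap came from Lifr-202, at 0.148, 0 and 0.265 TPM in fasted and 1.18, 1.19 and 0.632 TPM in fed libraries, whereas Lifr-207 was listed at 0 in fasted replicate 1 and in fed replicates 1 and 2. Lifr-206, annotated as a target of nonsense-mediated decay, has the same coding sequence and was at 1.01, 0.799 and 0.471 TPM in fasted and 0.694, 0.839 and 0.563 TPM in fed libraries. With it included the sums were 1.16, 1.46 and 1.44 TPM in fasted and 1.88, 2.03 and 1.64 TPM in fed libraries, again without overlap. Lifr-202 had a mean below 1 TPM and was tested only without the filter, where its level did not pass (limma, log2 fold change -0.81, unadjusted p = 0.0080, adjusted p = 0.81). Its change relative to the other Lifr transcripts, -0.91 on the log2 scale, did pass in that setting (diffSplice in limma, adjusted p = 0.021), as did 0.534% of all 76191 transcripts, while the test over the whole of Lifr did not (adjusted p = 0.17). With mean-variance weights, added after seeing the data, the same change was -0.88 and did not pass (adjusted p = 0.27), 0.651% of transcripts then passing. With the filter, equal weights made many false calls on simulated data. Of the 53 member transcripts above 0 in any library, 6 did not overlap between the groups, a share close to the 9.33% of all such transcripts. They were Lifr-202 and the retained-intron form Stat3-205, both lower, and Cntfr-203, Tyk2-203, Stat3-202 and the retained-intron form Stat3-206, all higher.

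**Figure D4:**
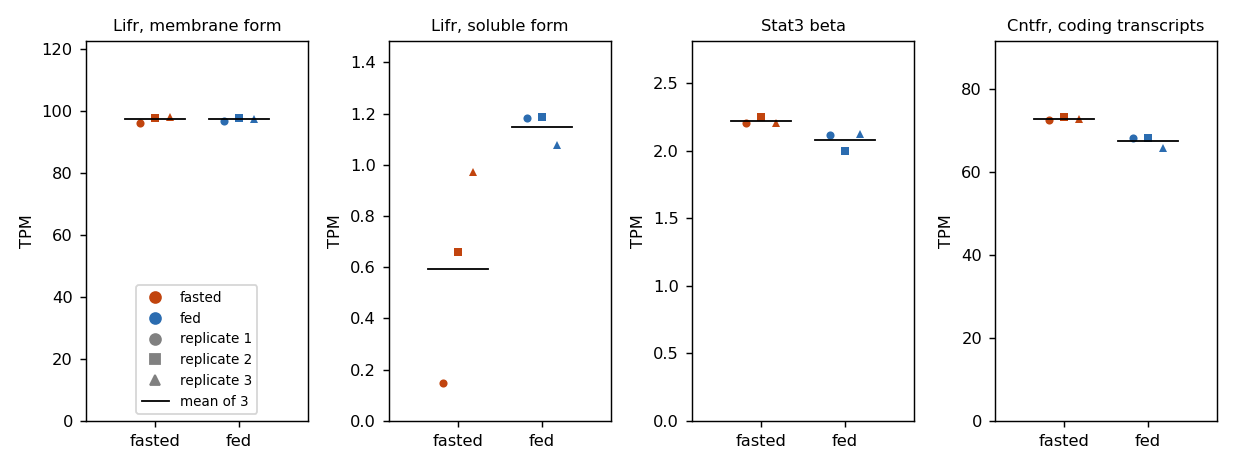
TPM of the membrane and soluble forms of Lifr, of Stat3 beta and of coding Cntfr, each on its own axis from 0. Points are libraries, fasted left and fed right, and lines are means of 3. The membrane form lies at 96.2 to 97.9 TPM in all 6 libraries, and the soluble form, Stat3 beta and coding Cntfr do not overlap between the groups.

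The rest of the route was followed in 60 further genes, grouped by role and listed with earlier results of these data known. Of these, 49 reached 1 TPM, 0 passed the adjusted threshold, and 3 had an unadjusted p under 0.05, all lower in fasted libraries, where 3.22% of all tested genes were lower by that measure. The median log2 fold change of the 49 was 0.0023, beside 0.03 for all tested genes. Groups without overlap were seen for 1 ligand gene higher and 1 lower in fasted libraries, and for 1 other receptor lower. They were also seen for 2 inhibitors higher, 1 adaptor lower and 1 STAT3-induced gene lower. Of all tested genes 17.8% did not overlap in either direction.

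Of 10 ligand genes 3 reached 1 TPM, of which 1 had a positive and 2 a negative log2 fold change, with a median of -0.15. Il6, Lif, Osm, Clcf1, Il11, Il27 and Ebi3 stayed below the filter. Cntf, the ciliary neurotrophic factor that myelinating Schwann cells are known to make, was by far the most abundant, at 73.5, 64.6 and 76.5 TPM in fasted and 84.5, 82.3 and 85.8 TPM in fed libraries. All fasted libraries lay below all fed ones, with a log2 fold change of -0.24 and a standard error of 0.06 (95% interval -0.38 to -0.09; limma, adjusted p = 0.42), which did not pass. Schwann cell markers overlapped between the groups, as given above, with 2 of the 4 positive and 2 negative.

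Of the 4 other receptors of the route 3 were tested, with a median of -0.05 and 0 passing. Il31ra, the partner of OSMR for interleukin-31, was at 19.1, 21.04 and 21.3 TPM in fasted and 22.9, 22.003 and 22.5 TPM in fed libraries. The groups did not overlap (limma, log2 fold change -0.13, adjusted p = 0.51), while its partner Osmr interleaved. The 5 markers of the itch neurons that carry this pair, Il31ra among them, summed to 73.9 to 84.1 TPM in fasted and 80.2 to 90.1 TPM in fed libraries, and 4 of the 5 had negative log2 fold changes. Il11ra1, the interleukin-11 receptor, was at 22.8, 21.4 and 18.0 TPM in fasted and 19.0, 18.7 and 18.7 TPM in fed libraries (adjusted p = 0.58 in limma), with fasted replicate 3 below the fed ones.

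Of the 7 other kinases and STATs 6 were tested, with 3 positive, 3 negative, a median of -0.03 and 0 passing. Jak3, a kinase of blood cells, was at 1.92, 2.13 and 1.51 TPM in fasted and 2.15, 2.67 and 2.09 TPM in fed libraries, and its groups overlapped. All 15 inhibitors and phosphatases were tested, 10 positive and 5 negative, with a median of 0.07 and 0 passing. In front were Pias2, an inhibitor that attaches SUMO (19.3, 20.2 and 20.9 TPM in fasted and 16.7, 18.0 and 19.7 TPM in fed libraries), and Socs4, a relative of Socs3 (13.0, 14.1 and 14.1 TPM in fasted and 12.7, 12.4 and 12.7 TPM in fed libraries). The groups of Pias2 overlapped and those of Socs4 did not, with adjusted p = 0.52 and 0.53 in limma.

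Of the 6 adaptors that link the receptors to RAS and PI3K, 4 were positive and 2 negative, with a median of 0.06 and 0 passing. Shc1, an adaptor that carries signals from phosphorylated receptors to RAS, had the smallest p of the whole route. It was at 102.1, 112.2 and 96.6 TPM in fasted and 135.9, 137.1 and 116.1 TPM in fed libraries. All fasted libraries were below all fed ones (limma, log2 fold change -0.32, standard error 0.08, 95% interval -0.51 to -0.13, adjusted p = 0.42). Sos1, the exchange factor for RAS, was at 41.6, 40.3 and 48.3 TPM in fasted and 39.7, 38.1 and 41.7 TPM in fed libraries and overlapped.

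Of 18 genes that STAT3 is known to induce, 16 were tested, 6 positive and 10 negative, with a median of -0.02 and 0 passing. Ccnd1, the cell cycle gene for cyclin D1, was at 14.8, 16.5 and 15.0 TPM in fasted and 17.5, 20.9 and 19.8 TPM in fed libraries, without overlap (limma, log2 fold change -0.31, standard error 0.08, adjusted p = 0.42). Sprr1a, an injury-induced gene of sensory neurons, had the largest fold change of the route, -1.62 (95% interval -3.41 to 0.17; limma, adjusted p = 0.52). That value rested on fed replicates 1 and 2, at 6.58 and 15.9 TPM, where fed replicate 3, at 0.5997 TPM, lay among the fasted libraries at 0.485, 0.738 and 1.73 TPM. Fed replicate 2 is the library with the muscle RNA. Fed replicate 1 had 176 TPM over the muscle markers, within the fasted range of 46.4 to 199 TPM. Atf3, of the same list, was also highest in fed replicates 1 and 2, at 13.0 and 18.0 TPM, against 6.03 to 8.03 TPM in the other libraries. The part of muscle RNA in these values was not tested. Junb, Myc, Mcl1, Pim1 and Bcl2l1, which STAT3 induces in many cells, had log2 fold changes between -0.02 and 0.07 and overlapped between the groups. Other genes of the list lay further from 0 and overlapped too. Atf3 was at -0.66, Lcn2 at -0.58 and Timp1 at -0.32, while Cebpd at 0.16 and Bcl3 at 0.10 were the highest of the list. Lower myeloid marker sums in fasted libraries accompanied the lower values of Shc1, Ccnd1 and Cntf, the 3 route genes with an unadjusted p under 0.05 in limma. Within each group the myeloid sum was highest in replicate 2 (93.3 TPM in fasted and 132 TPM in fed). Shc1 and Ccnd1 were highest there too, whereas Cntf was lowest there. Of the endothelial markers all 4 had log2 fold changes below 0, while 62.5% of all tested genes were above 0. Pecam1 and Cdh5 were lower without overlap, as were 5.07% of all tested genes. Kdr and Cldn5 overlapped, and so did the sums, at 45.1 to 55.1 TPM in fasted and 52.3 to 63.6 TPM in fed libraries. The part of either cell type in these values was not tested.

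**Figure D5:**
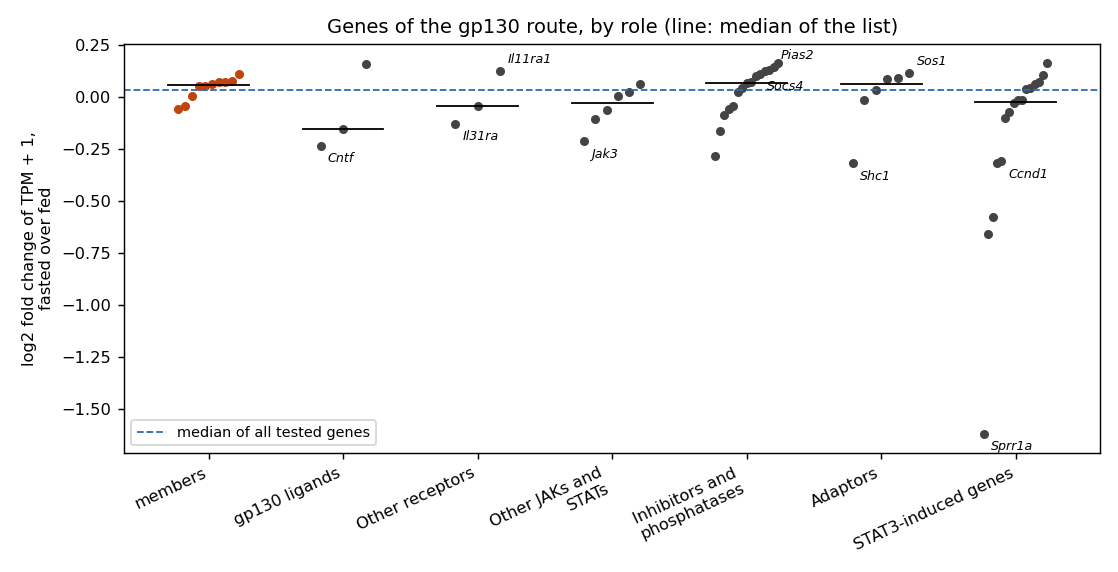
Log2 fold change of TPM + 1, fasted over fed, for the 10 genes (first column) and the 49 tested genes of the 6 lists. Points are genes, solid lines the median of each list and the dashed line the median of all tested genes, 0.03. The list medians lie between -0.15 and 0.07, and Sprr1a at -1.62 is the lowest point.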

How the data were processed

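Per the labels' protocols, stranded libraries of polyadenylated RNA were made from neuron-enriched ganglion cells. The authors deposited 1 table of TPM with a row per transcript. Salmon 1.6.0, Trim Galore 0.6.6, FastQC 0.11.9 and DESeq2 1.34.0 are named in the submitters' processing notes, with GRCm38 and mm10; their roles are not given in the sources used here. Each library sums to 1000000 TPM. Transcripts were summed per gene symbol, and positions and transcript types were taken from GENCODE M21 (98.7% of transcript versions and all 67 of the members matched), as were the printed sequences. Genes or transcripts with a mean of at least 1 TPM were compared on log2(TPM + 1) of the deposited TPM with limma 3.58.1 in R 4.3.3 (trended empirical Bayes, group only, two-sided), adjusted over all tested features. Transcript balance was tested with diffSplice; shares were compared by exact permutation. The fits were tested on simulated data. The members and lists were chosen with earlier results of these data known. Named were all members, their transcripts with at least 1 TPM and 5% of the gene, the 2 genes per list with the smallest p, and the 3 genes closest to Socs3; other genes and transcripts named were chosen after their values were seen. Of the genes this rule names, 2 are not reported here. Alternatives comprised pseudocounts, filters, scalings, weights, a replicate block, coding transcripts alone and leaving out each library.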

Additional observations from a re-analysis of the deposited data

How the results depend on the processing

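Of the 10 genes, 0 passed an adjusted p of 0.05 in limma under any of 19 alternatives (smallest adjusted p 0.40), and neither did the level of any of their transcripts, or the transcript balance of any gene as a whole, where these were refitted. Of single transcripts, the share of Lifr-202 passed without a filter (diffSplice, adjusted p = 0.021) and did not pass there with mean-variance weights (adjusted p = 0.27). Without adjustment at most 1 of the 10 had p under 0.05 in any of them. The count over all genes, 1 as reported, was 2 with a pseudocount of 0.1 or 0.5, 0 without a filter or with coding transcripts alone, as deposited or with median-of-ratios scaling (alternatives chosen after seeing the data), and 1 to 7 with 1 library left out. Over all transcripts, 9 as reported, it was 4 with a mean of at least 5 TPM, 0 with a replicate block and 4 to 14 with 1 library left out. Of 189 refitted fold changes of the 10 genes, 176 kept their sign and 13 did not. Osmr, near 0, went to -0.0232 (median-of-ratios), -0.0217 (TMM-type), -0.0202 (quantile), -0.0243 (without mitochondrially encoded genes), -0.0107 (array weights), and -0.0293 and -0.0410 without fasted and fed replicate 2 (-0.0410 to 0.0438 with 1 library left out); Socs3 went to -0.103 without fed replicate 3 (-0.103 to 0.173 with 1 left out) and -0.0146 with coding transcripts alone, and Lifr to -0.0070 with these; with median-of-ratios scaling of coding transcripts Osmr was at -0.0342, Socs3 at -0.0464 and Lifr at -0.0431. The cause was not tested. Median-of-ratios scaling lowered the share of all genes above 0 to 50.9% and that of the members to 7 of 10. No label says that the replicate numbers pair the libraries. Deviations from the group means correlated by 0.093, 0.114 and 0.066 between libraries of the same number. Each library correlated best with its own number, the highest correlation with another number being 0.039. With the replicate block 1 gene, 0 transcripts and 0 of the 10 members passed. The interval of Jak1 then lay above 0, from 0.03 to 0.20 (limma with the block, unadjusted p = 0.019, adjusted p = 0.43). Of 110 recomputed shares, 108 moved by less than the replicate spread. Depth is unknown, so the precision of forms near 1 TPM or below, such as the soluble form of LIFR, cannot be given.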
